A study of Mus musculus with 7 samples.

Results

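Ets1, 4 further ETS transcription factors, the 3 RUNX transcription factors and their shared partner Cbfb were followed in 7 bulk RNA-seq libraries of tdTomato-positive cells sorted from mouse skin on day 36. The 9 genes were picked by symbol from 25322 genes in the deposited table. The choice was made with results of these libraries known: Ets1 was among the genes with the smallest p-values between the genotypes, and Runx1 passed a comparison that held a macrophage score constant. Genotype differences of the 9 genes are therefore given as a description, without p-values.

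There were 4 Zfp750 knockout libraries (Zfp750_KO) and 3 control libraries. Zfp750 encodes a transcription factor of epidermal differentiation, and the study asked what its loss does in cells that descend from Lrig1-expressing cells of the hair follicle junctional zone. The knockouts carried ZNF750 fl/fl with Lrig1-CreER or Lrig1-CreERT2 +/-, and Rosa26 was +/- in 3 of them and -/- in 1. Of the controls, 2 were ZNF750 wt/fl with Lrig1-CreERT2 +/- and 1 was ZNF750 wt/wt with Lrig1-CreER +/-, all Rosa26 +/-. Both groups thus carried the inducible Cre recombinase, driven by Lrig1, and both were given 4-hydroxytamoxifen as pups, on days 4 to 7 or 5 to 8. The libraries are named as in the deposited columns, Zfp750_KO 1M, 2M, 3F and 6F and control 4F, 4M and 7F, which match no single sample label. Which columns hold the Rosa26 -/- knockout and the wt/wt control is therefore not known here. Nothing in the labels ties a library to an animal of its own.

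ETS factors share a DNA-binding domain that reads a GGAA core, and several of them, Ets1, Ets2 and Elk3 among them, are phosphorylated by MAP kinases. RUNX factors bind a TGTGGT-type site through the Runt domain, and Cbfb, which does not touch DNA itself, strengthens that binding. Ets1 and Runx1 bind some lymphocyte enhancers together. In skin, Runx1 is known from the activation of hair follicle stem cells, Runx3 from Langerhans cells and T cells, and Ets1 from a block of epidermal differentiation when it is forced on in mouse keratinocytes.

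The 3 RUNX genes share a sequence feature, in 1 promoter window each, which had no part in the choice of the genes. RefSeq promoter windows (GRCm38.p6, 250 bases before to 50 after a start) were at hand for 7 of the 9 genes, in 10 windows, and not for Ets1 and Fli1. The RUNX site ACCACA, or TGTGGT on the other strand, lay in 3 of the 10 windows, against 16.8% of all 32851 windows. These windows belong to Runx1, Runx2 and Runx3 and hold the site as a pair with 2 bases between, shown here because the pair recurs almost letter for letter in 1 window of each RUNX gene. The second windows of Runx1 and Runx3 held 0 such sites, and the Runx2 window held 3 in all. Each stretch is 30 bases, 5′ to 3′ on the gene's strand, with the paired sites in capitals:
Runx1, chr16:92826025-92826054, minus strand: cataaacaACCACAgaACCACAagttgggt
Runx2, chr17:44814583-44814612, minus strand: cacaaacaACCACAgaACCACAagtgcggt
Runx3, chr4:135120503-135120532, plus strand: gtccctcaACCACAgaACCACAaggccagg
The first site began at base 29 after the start in the Runx1 window and at base 24 in the Runx2 window, and at position -134 in the Runx3 window. The paired form ACCACANNACCACA, or TGTGGTNNTGTGGT on the other strand, was searched for after these letters had been read. It lay in 7 of the 32851 windows, or 0.0213%, and the other 4 belonged to Gm12236, Gm15462, Gm16225 and Olfr24. The ETS site CCGGAA, or TTCCGG on the other strand, lay in 1 window of the 10, a second window of Runx1, against 14.9% of all windows. These matches describe letters alone, and no binding was measured.

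The libraries held 9.09 to 17.1 M reads. The deposited values are normalized counts, in which 1 read was worth 0.689 to 1.31. Zfp750 itself had 48.9, 45.4, 10.1 and 29.6 in knockouts 1M, 2M, 3F and 6F, against 335, 51.2 and 61.9 in control 4F, 4M and 7F, without overlap. Its log2 difference was -1.47 (two-sided exact permutation p = 0.0571, the smallest that 35 splits allow), or -0.69 without control 4F. Leukocyte RNA varied within both groups: per M of the column total, Ptprc, the leukocyte antigen CD45, stood at 40.1, 39.2, 1247 and 982 in knockouts 1M, 2M, 3F and 6F, against 4.46, 474 and 700 in control 4F, 4M and 7F. Zfp750_KO 1M and 2M and control 4F are called the 3 low-Ptprc libraries here. These 3 were also the highest in Krt5, a keratin of basal keratinocytes, which was at 67.5 to 909 per M in Zfp750_KO and at 83.5 to 1112 per M in controls. Col1a1, a collagen of fibroblasts, was at 5483 to 42613 per M in Zfp750_KO and at 38351 to 81016 per M in controls, so the sorted cells held much RNA of types other than keratinocytes. Both low-Ptprc knockouts are marked M and both others F, so sex and leukocyte RNA cannot be told apart within Zfp750_KO. Control 4M held the Y-linked genes but also Xist, the RNA of the inactive X chromosome, at 3318 normalized counts, between 0.966 and 6.24 in the knockouts marked M and 23423 to 55719 in the libraries marked F. Without control 4M the log2 differences described in the following paragraphs were 0.43 for Ets2, 0.80 for Fli1, -0.06 for Etv5 and 0.29 for Cbfb, and between 0.66 and 2.25 for the other 5 genes. A term for genotype by sex called 3 of 18141 genes (0.0165%), Mmp11, Spon1 and Xist, and so none of the 9.

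Ets1 (ENSMUSG00000032035, chr9:32547517-32669117, plus strand) separated the groups without overlap. Gene positions are those of the deposited table, whose genome build is not given in the sources used here, and they are not on the scale of the promoter windows above. Ets1 had normalized counts of 1782, 1829, 1926 and 1827 in knockouts 1M, 2M, 3F and 6F, against 697, 568 and 787 in control 4F, 4M and 7F. The lowest knockout was 2.26 times the highest control, and the 4 knockouts lay close together in the deposited normalized counts. Per M of the column total they did not, with 133 and 139 in 1M and 2M and 179 and 175 in 3F and 6F, against 47.6 to 70.2 in controls. Means were 1841 ± 60.8 in Zfp750_KO (SD, n = 4) and 684 ± 110 in controls (SD, n = 3). The log2 difference, Zfp750_KO minus control on the log2(value + 11.9) scale, was 1.42 ± 0.17 (SE) with the group as the only term, 1.42 ± 0.15 with a macrophage score as a covariate, and 1.47 without the 3 low-Ptprc libraries. Leaving out single libraries gave 1.30 to 1.53. In bulk libraries like these, fewer cells of a type and less RNA per cell cannot be told apart.

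Ets2 (ENSMUSG00000022895, chr16:95502942-95522096, plus strand), a close relative of Ets1 that RAS signalling activates, overlapped between the groups. It had 4950, 3954, 3626 and 2866 in knockouts 1M, 2M, 3F and 6F, against 4079, 1804 and 1929 in control 4F, 4M and 7F. The overlap came from control 4F, which lay above 3 of the knockouts. Between the groups the log2 difference was 0.64 ± 0.34 (SE), and 1.01 without control 4F. Means were 3849 ± 864 in Zfp750_KO (SD, n = 4) and 2604 ± 1279 in controls (SD, n = 3).

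Fli1 (ENSMUSG00000016087, chr9:32333500-32454158, minus strand), an ETS factor of blood and endothelial cells, lies 93.4 kb from Ets1 in the deposited positions and did not share its pattern. Its values were 173, 231, 1070 and 803 in knockouts 1M, 2M, 3F and 6F, against 104, 474 and 555 in control 4F, 4M and 7F. Fli1 was low in the 3 low-Ptprc libraries of either genotype and high in the other 4. The log2 difference was 0.49 ± 0.80 (SE) with the group alone and 0.28 ± 0.18 with the macrophage score. Its direction was not stable: the difference was -0.23 without control 4F, -0.98 with array weights and -0.90 with a T cell score as the covariate.

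Elk3 (ENSMUSG00000008398, chr10:93083276-93146998, minus strand), a partner of serum response factor that represses until MAP kinases phosphorylate it, showed the reverse slope within the knockouts. Its values were 1487, 1253, 711 and 569 in knockouts 1M, 2M, 3F and 6F, against 390, 417 and 493 in control 4F, 4M and 7F. The groups did not overlap, but the margin was 1.15-fold, set by Zfp750_KO 6F and control 7F. Its log2 difference was 1.09 ± 0.35 (SE), and 0.48 without the 3 low-Ptprc libraries. Etv5 (ENSMUSG00000013089, chr16:22200059-22258470, minus strand), a PEA3-type factor induced by FGF signalling, had the smallest difference with the group alone, though that of Cbfb was smaller without the 3 low-Ptprc libraries and that of Fli1 without control 4F or Zfp750_KO 3F. Etv5 had 431, 551, 464 and 457 in knockouts 1M, 2M, 3F and 6F, against 581, 366 and 422 in control 4F, 4M and 7F. All 4 knockouts lay within the range of the controls, with a log2 difference of 0.08 ± 0.21 (SE).

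Runx1 (ENSMUSG00000022952, chr16:92398354-92623038, minus strand), the RUNX factor of blood formation and of hair follicle stem cells, had the highest mean normalized count of the 9 genes in either group, although Ets2 lay above it in control 4F. Its values were 7426, 7430, 5247 and 4849 in knockouts 1M, 2M, 3F and 6F, against 2525, 2451 and 3142 in control 4F, 4M and 7F. Every knockout lay above every control, and the 2 knockouts of low Ptprc were the highest. Means were 6238 ± 1384 in Zfp750_KO (SD, n = 4) and 2706 ± 379 in controls (SD, n = 3). The log2 difference was 1.18 ± 0.24 (SE) with the group alone, 1.21 ± 0.19 with the macrophage score and 0.86 without the 3 low-Ptprc libraries.

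Runx2 (ENSMUSG00000039153, chr17:44806874-45125685, minus strand), the factor of bone formation, had the lowest mean level per kb of exon of the 9 genes in either group, although Fli1 lay below it in the 3 low-Ptprc libraries and Runx3 in control 4F. It had 635, 596, 500 and 498 normalized counts in knockouts 1M, 2M, 3F and 6F, against 362, 303 and 331 in control 4F, 4M and 7F. The groups did not overlap and both were tight, at 557 ± 69.0 in Zfp750_KO (SD, n = 4) and 332 ± 29.6 in controls (SD, n = 3). The log2 difference was 0.72 ± 0.17 (SE), and 0.66 to 0.78 without single libraries. Of 7 bone and cartilage markers 2 passed the filter on low values and neither passed the test, with a summed level of 6.80 to 21.6 per M in Zfp750_KO and 3.85 to 19.4 per M in controls. Most of that sum was Acan, the cartilage proteoglycan aggrecan, at 4.08 to 19.1 per M in Zfp750_KO and 2.42 to 15.2 per M in controls.

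Runx3 (ENSMUSG00000070691, chr4:134847963-134905302, plus strand), the factor of CD8 T cells and Langerhans cells, had the largest difference of the 9 with the group alone, but not with array weights or a T cell score, where Elk3 was at 1.39 and 1.46. Its values were 703, 828, 1369 and 979 in knockouts 1M, 2M, 3F and 6F, against 92.9, 277 and 370 in control 4F, 4M and 7F. Within each group Runx3 was higher in the libraries of high Ptprc than in those of low Ptprc, yet the lowest knockout was 1.90 times the highest control. Means were 970 ± 289 in Zfp750_KO (SD, n = 4) and 247 ± 141 in controls (SD, n = 3). The log2 difference was 2.07 ± 0.46 (SE) with the group alone, 1.97 ± 0.23 with the macrophage score, 1.82 without the 3 low-Ptprc libraries, 1.42 with a T cell score and 1.31 with array weights. T cell RNA was measured beside it: Cd3e, a chain of the T cell receptor complex, was at 4.81, 4.62, 43.9 and 17.6 per M in knockouts 1M, 2M, 3F and 6F, against 0.352, 8.03 and 9.53 per M in control 4F, 4M and 7F. Of 17 T cell markers tested 2 rose and none fell with the macrophage score, beside 1.48% and 2.28% of all genes. Their summed level was 455 to 714 per M in Zfp750_KO and 278 to 593 per M in controls, but Thy1, its most abundant gene, was high in the 3 low-Ptprc libraries, where Cd3e was low. Without Thy1 the sum was 34.0, 41.4, 348 and 214 per M in knockouts 1M, 2M, 3F and 6F, against 7.33, 57.9 and 80.3 per M in control 4F, 4M and 7F. Cd3e was lower in Zfp750_KO 1M and 2M than in control 4M and 7F, and higher in Zfp750_KO 3F and 6F than in all controls. Runx3 was higher in every knockout than in every control. The part of T cells in the Runx3 difference was not tested further.

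Cbfb (ENSMUSG00000031885, chr8:105897306-105944622, plus strand), the partner of all 3 RUNX proteins, differed less than they did. It had 2023, 1919, 1460 and 1196 in knockouts 1M, 2M, 3F and 6F, against 1323, 1023 and 1317 in control 4F, 4M and 7F. Zfp750_KO 6F lay below 2 of the controls, so the groups overlapped. Its log2 difference was 0.41 ± 0.24 (SE), and 0.18 without the 3 low-Ptprc libraries.

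**Figure D1:**
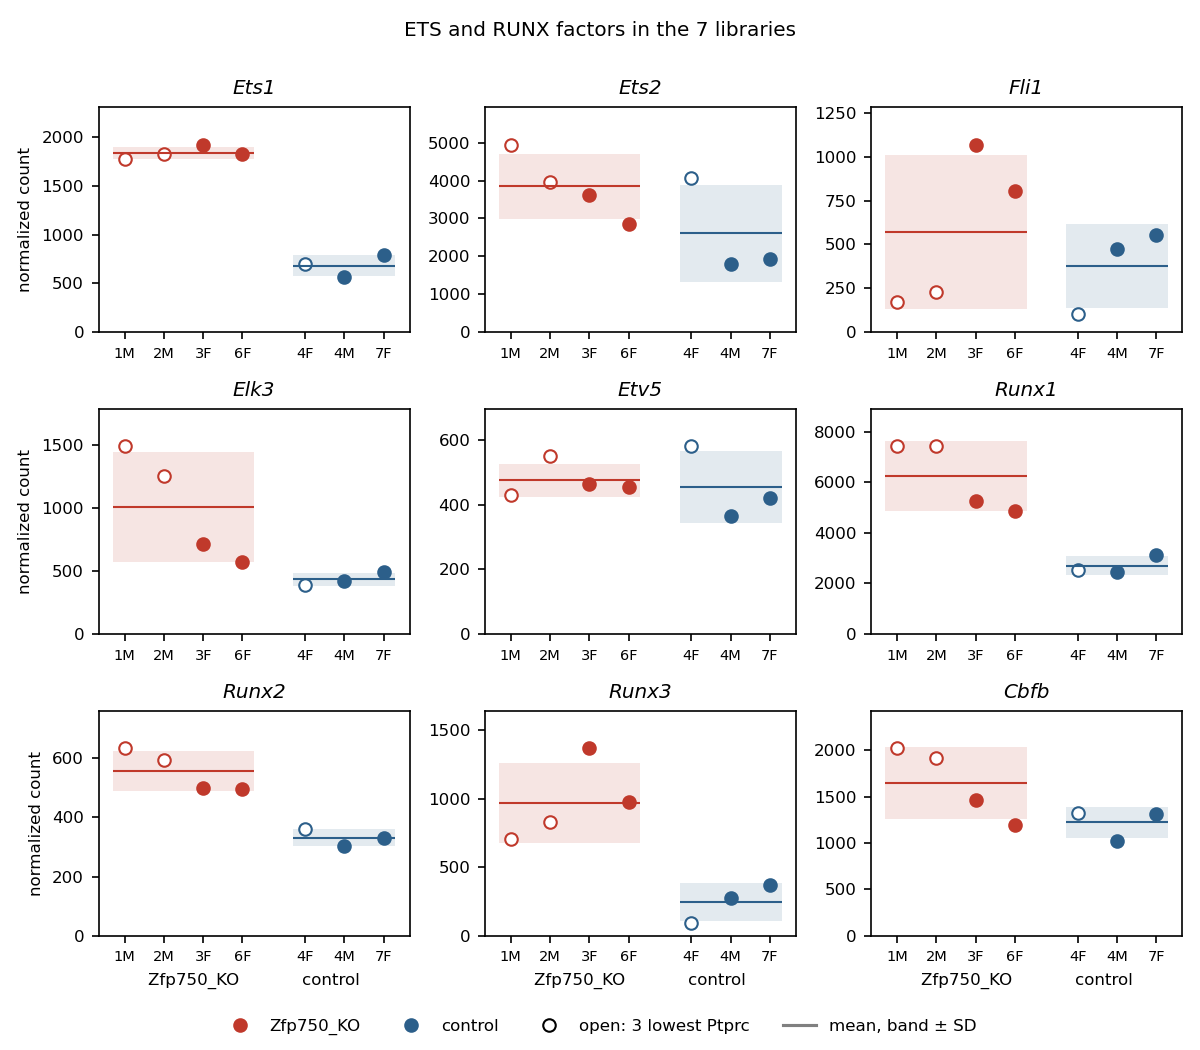
Normalized counts (y axis, from 0) of the 9 genes in each library, Zfp750_KO left and control right. Lines are group means, bands ± SD, and open circles the 3 low-Ptprc libraries. Ets1 runs flat over the knockouts in normalized counts, at 1782 to 1926, above the controls at 568 to 787, whereas Fli1 separates open from filled circles.

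In all, 5 of the 9 genes did not overlap between the groups, each of them higher in Zfp750_KO: Ets1, Elk3, Runx1, Runx2 and Runx3. Among all 18141 genes tested, 3.19% lay higher in every knockout than in every control, and 3.91% lower. Nothing is read from this share, since Ets1 and Runx1 were picked from the same comparison. The 9 log2 differences were all positive with the group alone, with a median of 0.72, against 0.02 over all genes tested. Nothing is read from this either, since the 9 genes were chosen with genotype results of these libraries known. The signs of Fli1 and Etv5 also changed under some alternatives. All 9 passed the filter on low values in every group, with at least 120 reads in the library where each was lowest.

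**Figure D2:**
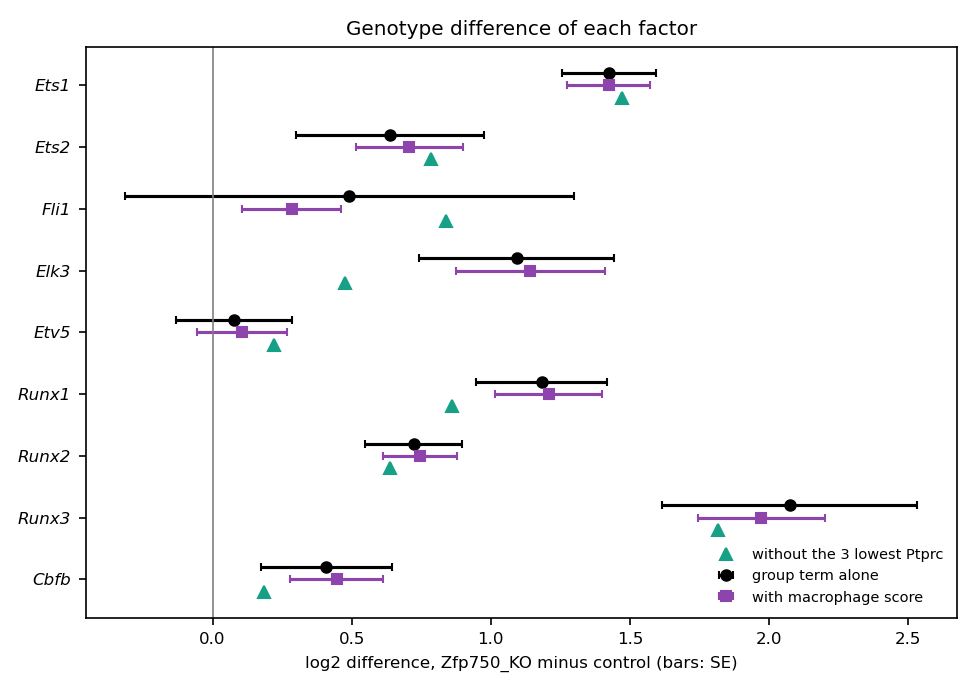
Log2 difference of each gene, Zfp750_KO minus control (x axis), with the group term alone (circles), with the macrophage score (squares) and without the 3 low-Ptprc libraries (triangles). Bars are the SE. Ets1 stays at 1.42 to 1.47 in all 3, while Elk3 moves between 1.14 and 0.48.

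Set beside Ptprc, the genes fell into different patterns. Ets1 and Runx1 followed the genotype over a wide range of Ptprc, but both were chosen for their genotype difference, so nothing is read from this. Ptprc was not matched among the 3 low-Ptprc libraries, at 4.46 per M in control 4F against 40.1 and 39.2 in Zfp750_KO 1M and 2M. Fli1 followed Ptprc, and Runx3 followed both. The ratio of Runx3 to Ptprc normalized counts was 1.31, 1.60, 0.102 and 0.0955 in knockouts 1M, 2M, 3F and 6F, against 1.58, 0.0490 and 0.0471 in control 4F, 4M and 7F. Between the libraries of high Ptprc this ratio was higher in both knockouts than in both controls, and among the 3 low-Ptprc libraries the control lay between the knockouts.

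**Figure D3:**
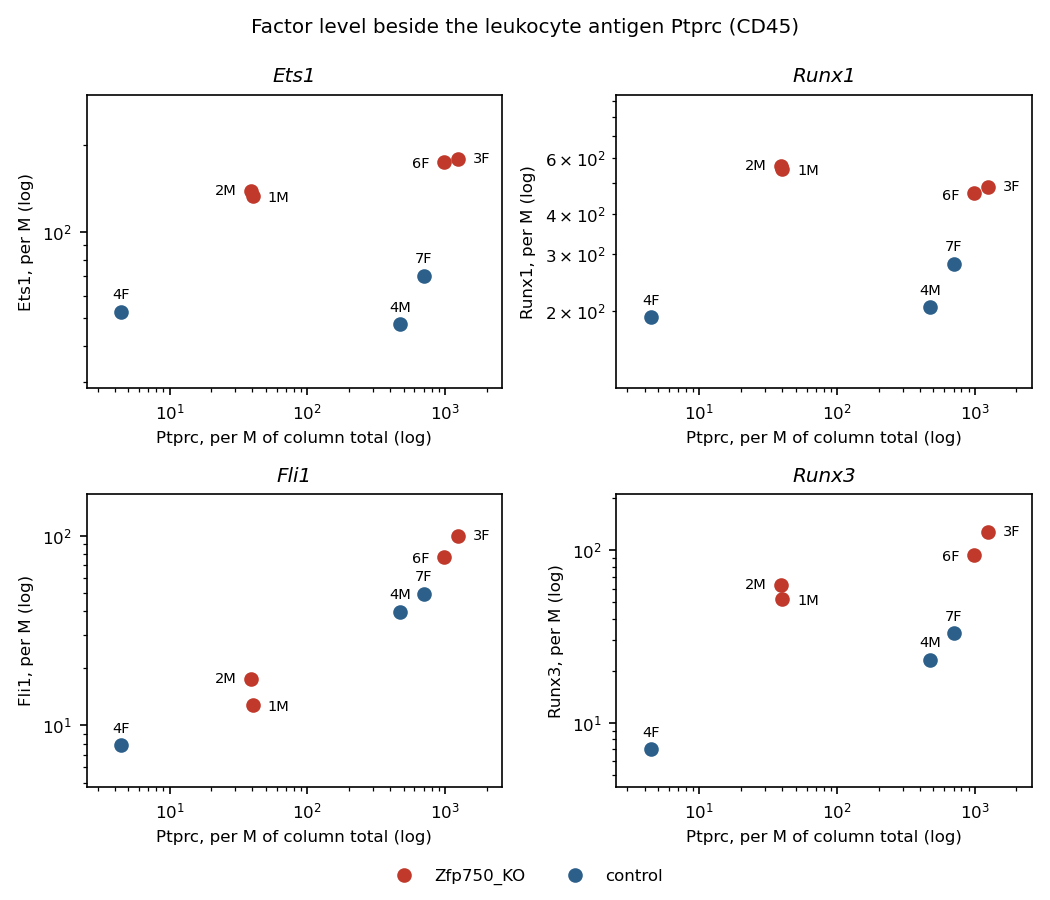
Level of Ets1, Runx1, Fli1 and Runx3 (y axes, per M of the column total, log scale) against Ptprc (x axes, per M, log scale), 1 point per library. Knockouts lie above controls at low and high Ptprc for Ets1, Runx1 and Runx3, whereas the Fli1 levels of both groups rise with Ptprc along a shared path.

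Levels were compared between genes per M of the column total and per kb of exon. On that scale Ets2 was the highest in knockouts, at 55.4 ± 7.20 in Zfp750_KO (SD, n = 4) and 36.5 ± 14.8 in controls (SD, n = 3). In knockouts its lowest value, 47.5, lay just above the highest of Runx1, 46.9, whereas the ranges of Runx1 and Cbfb overlapped. Runx1 was at 43.0 ± 4.08 in Zfp750_KO and 18.8 ± 3.98 in controls, and Cbfb at 39.3 ± 4.62 in Zfp750_KO and 29.1 ± 4.57 in controls. Ets1, Elk3, Runx3 and Fli1 formed a middle range in Zfp750_KO, at 18.5, 17.9, 16.8 and 14.8, within one another's spread, against 6.71, 7.94, 4.21 and 9.28 in controls. Etv5 stood at 9.80 ± 1.32 in Zfp750_KO and 9.12 ± 1.63 in controls, and Runx2 at 5.28 ± 0.13 in Zfp750_KO and 3.10 ± 0.23 in controls.

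The summed level of the 3 RUNX genes was 61.9, 64.5, 71.2 and 62.7 per M per kb in knockouts 1M, 2M, 3F and 6F, against 20.4, 24.6 and 33.2 in control 4F, 4M and 7F. Relative to Cbfb, the RUNX sum was 1.43, 1.54, 1.83 and 1.91 in those knockouts, against 0.709, 0.999 and 0.985 in those controls. On this length-corrected scale the RUNX sum exceeded Cbfb in all knockouts, was close to it in control 4M and 7F and fell short of it in control 4F. The make-up of the sum followed Ptprc as well as genotype. Runx1 took 74.4%, 72.6%, 56.9% and 61.5% of it in knockouts 1M, 2M, 3F and 6F, against 77.9%, 69.5% and 70.1% in control 4F, 4M and 7F. Runx3 took 16.9%, 19.4%, 35.7% and 29.9% in the knockouts, against 6.89%, 18.9% and 19.8% in the controls. Ets1 in turn made up 13.6% to 18.3% of the summed level of the 5 ETS genes in Zfp750_KO, against 7.87% to 11.7% in controls.

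**Figure D4:**
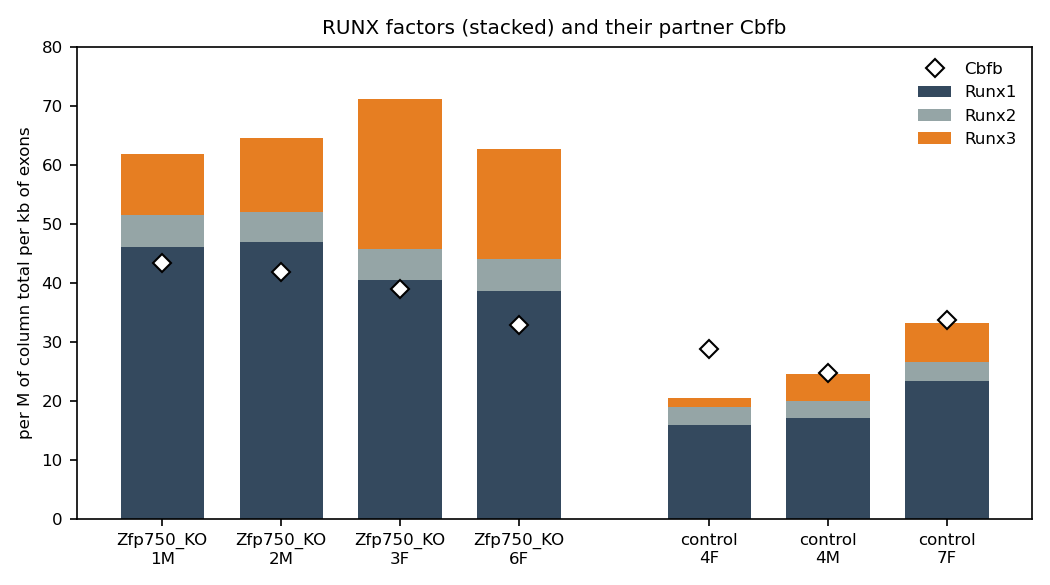
Stacked levels of Runx1, Runx2 and Runx3 in each library (y axis, per M of the column total per kb of exon, from 0), with Cbfb as diamonds, Zfp750_KO left and control right. The stack reaches 61.9 to 71.2 in knockouts, above their diamonds, and 20.4 to 33.2 in controls, at or below theirs.

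Some of the 9 genes overlap other annotated genes, and the strand setting of the counting is not given in the sources used here, so reads of genes on opposite strands cannot be told apart where they overlap. Inside Ets1, on the opposite strand, Gm27240 had only 7.58 to 10.4 normalized counts in Zfp750_KO and 2.25 to 3.87 in controls, too few to be tested. Cdk17, a kinase gene that overlaps Elk3 on the opposite strand, had 254 to 482 in Zfp750_KO and 279 to 357 in controls (limma adjusted p = 0.835 with the macrophage score). Supt3, which overlaps Runx2, had 35.7 to 67.6 in Zfp750_KO and 51.9 to 86.6 in controls, opposite in direction to Runx2 (limma adjusted p = 0.379). Inside Fli1, on the same strand, 4 provisional genes had 4.16 to 132 in Zfp750_KO and 0 to 74.8 in controls and were high where Fli1 was high. In no library did one of these genes hold as many counts as the gene it overlaps.

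Genes outside the 9 were then tested across the whole table with limma and Benjamini-Hochberg adjustment at 0.05. With the group as the only term, 0 genes passed in either direction (0% of 18141). At an unadjusted p under 0.05 there were 1058 (5.83%). With the macrophage score as a covariate, 268 genes (1.48%) were higher and 414 (2.28%) lower in Zfp750_KO, together 3.76%, and 17.7% had an unadjusted p under 0.05. For the score, the log2 values of 25 macrophage and monocyte genes were averaged per library. The following values come from that fit.

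Of 21 other ETS factors 16 were tested and 0 passed limma in either direction, beside 1.48% higher and 2.28% lower over all genes. At an unadjusted p under 0.05 there were 5, beside 17.7% of all genes, and the median log2 difference was 0.25. Etv3, an ETS repressor, had values of 1001 to 7620 in Zfp750_KO and 1019 to 5749 in controls, high where Ptprc was high (log2 difference -0.51 ± 0.17, adjusted p = 0.144). Erf, a repressor that MAP kinase removes from the nucleus, was at -0.22 ± 0.18 (adjusted p = 0.611). Of 23 RUNX partners and co-repressors, 22 were tested and 0 passed limma, with 1 at an unadjusted p under 0.05 and a median of 0.06. The same shares of all genes apply, and nothing is read from the counts of these lists. Crebbp, an acetyltransferase that binds RUNX factors, had means of 2915 ± 109 in Zfp750_KO (SD, n = 4) and 2705 ± 97.4 in controls (SD, n = 3), a log2 difference of 0.11 ± 0.13. Tle3, a Groucho-type co-repressor, was at -0.08 ± 0.17. A p that misses the threshold does not show that these genes were equal in both groups.

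Among 27 genes of the MAP kinase route to ETS factors and its feedback, 1 rose and 0 fell, beside 1.48% and 2.28% of all genes. Nothing is read from this count. The median log2 difference of the list was 0.13. The gene that rose was Dusp4, a nuclear phosphatase that switches off MAP kinases. It had 484, 507, 460 and 472 in knockouts 1M, 2M, 3F and 6F, against 340, 156 and 191 in control 4F, 4M and 7F, a log2 difference of 1.15 ± 0.19 (adjusted p = 0.0143). The knockouts lay close together in normalized counts, as for Ets1. Leaving out control 4M or control 7F ended the call of Dusp4, at an adjusted p of at most 0.0863.

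Of 23 reported targets of ETS factors 21 were tested, of which 5 rose and 1 fell, beside 1.48% and 2.28% of all genes. Tnc, the matrix protein tenascin C, was the most uneven, with 57351, 46447, 1028 and 1277 in knockouts 1M, 2M, 3F and 6F, against 2883, 796 and 829 in control 4F, 4M and 7F (3.00 ± 0.69, adjusted p = 0.0483). Tnc was high in the 2 low-Ptprc knockouts and overlapped the controls in the other 2. Prdm1 is a transcriptional repressor that acts in plasma cells and in epidermal and sebaceous cells. It had 3730, 3134, 1045 and 616 in knockouts 1M, 2M, 3F and 6F, against 260, 228 and 301 in control 4F, 4M and 7F (2.72 ± 0.42, limma adjusted p = 0.0108). Spp1, the secreted matrix protein osteopontin, had 227, 172, 139 and 77.1 in the same knockouts, against 16.3, 45.9 and 40.5 in the same controls (1.83 ± 0.38, adjusted p = 0.0337). Prdm1 and Spp1 separated the groups without overlap. Il2rb, a receptor chain for interleukin 2 and 15, rose by 1.29 ± 0.22 (adjusted p = 0.0144) and Trac, the T cell receptor alpha constant gene, by 1.17 ± 0.26 (adjusted p = 0.0436). Both are T cell genes, and both overlapped between the groups. With the T cell score as the covariate their limma adjusted p was 0.687 and 0.647. Trac is itself part of that score, so its loss of the call there is not informative. Tek, the angiopoietin receptor of endothelial cells, had a log2 difference of -1.46 ± 0.26 (adjusted p = 0.0192), with 104 to 307 in Zfp750_KO against 327 to 887 in controls. Tek kept the call in 3 of 7 comparisons that left out 1 library, and lost it without each of Zfp750_KO 3F and 6F and control 4M and 7F, with adjusted p-values up to 0.118. Several of these targets are endothelial genes, whose 8 markers summed to 162 to 349 per M in Zfp750_KO and 54.0 to 134 per M in controls, while none of the 8 passed the test and Pecam1, their defining adhesion molecule, overlapped at 24.1 to 53.8 per M in Zfp750_KO and 15.1 to 31.1 per M in controls. Flt1, also 1 of the listed ETS targets, made the gap: without it the other 7 summed to 77.3 to 241 per M in Zfp750_KO and 47.4 to 97.0 per M in controls, with overlap. The part of endothelial cells in these values was not tested.

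Of 25 reported targets of RUNX factors 20 were tested, of which 8 rose and 0 fell, beside 1.48% and 2.28% of all genes. Their median log2 difference was 0.55. Tnfsf11, the osteoclast factor RANKL, had 45.7, 21.3, 62.0 and 58.5 in knockouts 1M, 2M, 3F and 6F, against 3.10, 2.63 and 10.1 in control 4F, 4M and 7F (1.68 ± 0.28, adjusted p = 0.0133). Tnfsf11 was under 1 per M in every control, so it passed the filter on low values only through the knockouts, where it was high. Its control values also lie below the pseudocount of 11.9, so its call is given as a description only. Its decoy receptor Tnfrsf11b also rose, with 1363, 1291, 172 and 161 in those knockouts, against 110, 93.2 and 88.9 in those controls (2.34 ± 0.49, adjusted p = 0.0336). RANKL was highest in the knockouts of high Ptprc and its decoy in those of low Ptprc. Mmp13, a collagenase and a target of Runx2 in bone, was at 85.4 to 8728 in Zfp750_KO and 19.4 to 28.9 in controls (4.88 ± 1.04, adjusted p = 0.0363). Itgae, the integrin CD103 of skin T cells and dendritic cells, had 167, 238, 1191 and 844 in knockouts 1M, 2M, 3F and 6F, against 11.6, 230 and 332 in control 4F, 4M and 7F (1.62 ± 0.27, adjusted p = 0.0137). With the T cell score Itgae had an adjusted p of 0.866. Snai2, a repressor of epithelial genes, overlapped, with 290, 312, 30.4 and 35.8 in those knockouts, against 118, 34.1 and 16.9 in those controls (1.32 ± 0.29, adjusted p = 0.0415). The others that rose were Spp1 and Il2rb, which are in both target lists, and Itgal, an adhesion chain of leukocytes (0.93 ± 0.19, adjusted p = 0.0307, or 0.131 with the T cell score). Csf1r, which did not pass, is also part of the score. Other cell types moved in the same comparison. Of 8 smooth muscle and pericyte markers 4 rose and 0 fell, led by the contractile genes Tagln (2.30 ± 0.15, adjusted p = 0.00151) and Acta2 (1.59 ± 0.16, adjusted p = 0.00311), and all 6 skeletal muscle markers fell, with a median of -2.80. The summed smooth muscle level was 395 to 1772 per M in Zfp750_KO and 438 to 852 per M in controls, and that of skeletal muscle 7.33 to 43.2 per M in Zfp750_KO and 33.4 to 454 per M in controls. The part of these cells in the target values was not tested. Without control 4M 0 genes of either target list rose, and without control 7F 2 rose in each. Of the 11 different genes that rose, Il2rb, Itgae and Prdm1 lost the call only without control 4M, and Tnfsf11 only without control 4M or 7F. Itgal kept it in 3 of 7 such comparisons, Mmp13, Tnfrsf11b and Spp1 in 2, and Tnc, Snai2 and Trac in 1. Adjusted p-values in these comparisons went up to 0.199, for Trac. Without the 3 low-Ptprc libraries and with the group alone, which leaves 2 libraries a group, 7 RUNX targets and 4 ETS targets were higher. Over all 17214 genes tested in that setting, 884 were higher and 1208 lower, so calls were common there. Of the genes above, Prdm1 (1.57), Mmp13 (1.83), Il2rb (1.66), Itgae (1.82), Itgal (1.54) and Trac (1.84) passed there, and Tnfsf11 was not tested. Tnc was then at 0.49, Snai2 at 0.30, Tnfrsf11b at 0.80 and Spp1 at 1.07, with limma adjusted p-values of 0.107, 0.659, 0.0667 and 0.0559.

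**Figure D5:**
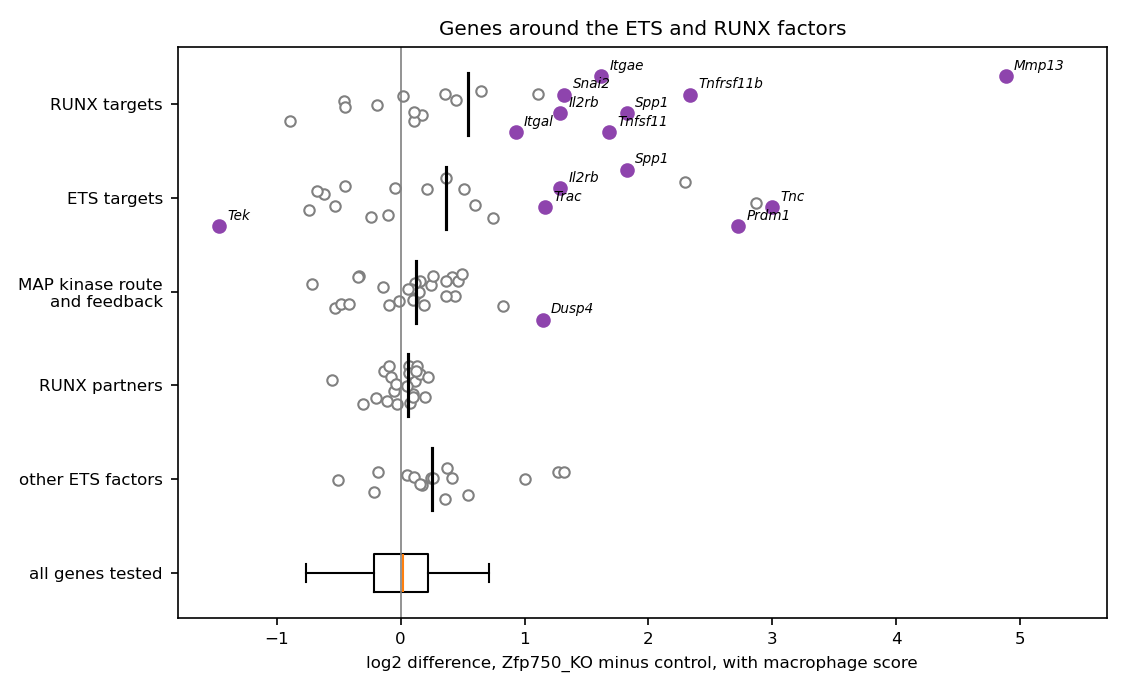
Log2 difference, Zfp750_KO minus control with the macrophage score (x axis), of the tested genes of 5 lists. Filled points passed an adjusted p of 0.05, black bars are list medians, and the box gives all genes tested (quartiles, whiskers at the 5th and 95th percentile). The medians lie at 0.06 for RUNX partners and at 0.55 for RUNX targets.

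Pearson correlations of log2 values over the 7 libraries describe which genes had a pattern most like each of the 9, among 11244 genes of at least 5 per M on average. They rest on 7 points in 2 groups, and any genes that follow the same cell types or the same group correlate on them. For Ets1 the closest were Gxylt1 (0.980), Sox7 (0.974), Niban2 (0.972), Arid3a (0.969), Cmpk1 (0.962) and Tbcb (0.961). For Runx1 they were Tns3 (0.993), Klhl5 (0.989) and Ifitm1 (0.984), and Tns3 also stood first for Runx2 (0.983), before Washc5 and Msmo1. Vim, the mesenchymal filament vimentin, was closest to Runx3 (0.981), followed by Spata13 and Rbms1. Lats2 (0.997), Podnl1 and Serpina3g stood closest to Elk3, and Fam13b (0.999), Lpxn and Tnfrsf1b to Fli1. Ybx1 (0.996), Ppp3cc and Pacs1 were closest to Ets2, Tex30 (0.942), Crkl and Zfp942 to Etv5, and Eif1a (0.996), Ptger4 and Lpgat1 to Cbfb. Among the 9 genes themselves Ets1 was most like Runx2 (0.93) and Runx1 (0.93), then Runx3 (0.87), and least like its neighbour Fli1 (0.24). The highest value of all pairs was that of Runx1 with Runx2 (0.97), and the lowest that of Ets2 with Fli1 (-0.52).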

How the data were processed

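Bulk RNA-seq of sorted tdTomato-positive skin cells was analysed from 1 table. Per the file headers, the authors deposited normalized counts per gene, a signal in place of raw counts. TopHat2 2.1.0, an aligner, and Partek 9.0.20.0202 are named per the submitters' processing notes. Below 200 reads, 78.0% to 79.6% of a column came out as whole reads within 0.02, so whole reads were not recovered and no count test was run. No listed gene had under 10 reads in total. Columns were assigned to groups by their names, without replicate numbers.

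Values were analysed as log2(value + 11.9), a pseudocount of 1 per M of the median column total, which understates differences of low genes. Genes with at least 1 per M in at least 3 libraries, 18141 in all, were fitted with limma 3.58.1 (R 4.3.3; lmFit, eBayes with a trend; Benjamini-Hochberg), with the group alone (5 residual degrees of freedom) or with the macrophage score (4). A p-value measures only how these libraries vary, which may be technical. Exon lengths came from GENCODE M21 by gene identifier. The fits were tested on simulated data.

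The 9 genes, the lists and the score were chosen with earlier results of these data known. All 9 genes are named, as are up to 6 genes past the threshold per list by size of difference, otherwise the 2 with the highest mean, and the closest 6 (Ets1) or 3 genes by correlation. Alternatives were other pseudocounts, filters, scalings, array weights, other scores, a sex term, and leaving out libraries.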

Additional observations from a re-analysis of the deposited data

How the results depend on the processing

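The log2 differences of Ets1, Elk3, Runx1, Runx2, Runx3, Ets2 and Cbfb stayed positive under every alternative run. Those of Fli1 and Etv5 did not: Fli1 was at -0.98 with array weights and -0.90 with a T cell score, and leaving out single libraries gave -0.23 to 0.92 for Fli1 and -0.06 to 0.26 for Etv5. Without the 3 low-Ptprc libraries Elk3 was at 0.48 and Runx1 at 0.86. Runx2 was at 0.88 with the T cell score and Runx3 at 1.31 with array weights. With the group alone, 0 genes passed except with array weights (1883 higher, 1912 lower) and without the 3 low-Ptprc libraries (884 and 1208), a setting added for gene counts after seeing the data. With the macrophage score the 268 higher and 414 lower genes became 526 and 763 with array weights. A fibroblast score in its place gave 536 higher, and a T cell score 1428 higher and 1812 lower. Leaving out single libraries gave 57 to 605 higher and 101 to 968 lower, lowest without control 4M and highest without control 4F. In the lists, leaving out the 3 low-Ptprc libraries with the group alone called 1 other ETS factor higher, 1 RUNX partner higher and 3 lower, 2 MAP kinase genes higher and 6 lower, and 2 ETS targets lower. Array weights called 2 MAP kinase genes higher and 1 lower. A filter of 5 per M left 3 ETS targets and 5 RUNX targets higher. Over single libraries left out, 0 to 1 MAP kinase genes were higher and 0 to 2 lower, 0 to 6 ETS targets higher and 0 to 2 lower, 0 to 8 RUNX targets higher, and 0 to 1 RUNX partners lower. The causes were not tested. No scaling moved the median of all genes by more than 0.1. No paired analysis was possible because the columns carry no replicate numbers. With 3 controls, of which 1 is low in Ptprc, the spread of that group rests on few libraries.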
